A study of Mus musculus with 3 samples.

Results

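Stfa1, Stfa2, Stfa2l1, Stfa3, Cstdc4 and Cstdc5 are 6 of the 32285 genes in the count files, and all lie in the stefin A cluster of mouse chromosome 16. They were selected by name, because of the UMIs (unique molecular identifiers, each marking a captured RNA molecule) that they gave in the neutrophils of these same libraries. Their level in neutrophils is therefore a description and carries no test. Neutrophils were taken as cells in which S100a8 and S100a9, the subunits of the neutrophil protein calprotectin, made up at least 2% of the UMIs.

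Stefins are small inhibitors that stay inside the cell, unlike cystatin C, which is secreted. They bind reversibly in the active site of papain-like cysteine proteases such as cathepsins B, H, L and S, and are thought to restrain proteases that escape from lysosomes. Human has a single stefin A gene, whereas the mouse locus has been copied many times, and its products are known from myeloid cells and from skin.

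Single-cell RNA-Seq came from naive left lungs, and from left lung grafts harvested 2 hours or 3 days after reperfusion, with 1 library per condition and the cells of 2 mice pooled in each. The naive mice were B6, and the transplants were syngeneic, with CD45.2 B6 lungs given to CD45.1 B6 recipients. The grafts were kept for 60 minutes at 4 °C and then for 45 minutes at 28 °C before reperfusion, and the sort took CD45.1 recipient cells. The labels give the naive lungs, which had no recipient, the same sort, so which CD45+ cells that library holds is not settled. Pooling 2 mice in 1 library leaves no replicate, so differences between conditions cannot be told apart from differences between libraries, and no p-value is given. The naive counts were also made with another version of the counting software than the graft counts. Its part in the comparisons with naive cannot be told apart and was not tested.

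The rule found 339 neutrophils among 2422 kept naive cells, 3450 among 10283 at 2 hours and 2233 among 8324 at 3 days. They carried 2136548, 3096613 and 11549216 UMIs. Per neutrophil, the median depth was 5742 naive, 759 at 2 hours and 4585 at 3 days, so the 2-hour library stood apart in depth, and shares of positive cells are compared only after each cell was thinned to 500 UMIs. The label was checked on the 8 neutrophil markers other than S100a8 and S100a9, which the rule used: a median of 5 was found per naive neutrophil, 3 at 2 hours and 5 at 3 days, against 0 in B-like and T-like cells. From 91.1% to 98.5% of the neutrophils fell in neutrophil-like clusters. These clusters were made without S100a8 and S100a9, but the marker list that named them holds both. A neutrophil-like cluster also held cells below the 2% limit, 58, 958 and 177 of them. The libraries shared at most 23 cell barcodes.

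The 6 genes spread over 299 kb, from chr16:36156811 to 36455392 in GRCm38, in a stretch where GENCODE vM21 places 9 coding genes, 7 pseudogenes and 12 small nuclear RNA genes. None of these 7 pseudogenes was among the features counted. In genomic order, Stfa2l1 lies at chr16:36156811-36161953, Cstdc4 at chr16:36184212-36188111 and Stfa1 at chr16:36276951-36285373, all on the plus strand. Cstdc5 at chr16:36359382-36367748, Stfa2 at chr16:36403992-36408457 and Stfa3 at chr16:36450537-36455392 are on the minus strand. Each has 3 exons in its shortest coding transcript, with a coding sequence of 291 to 384 bases.

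Sequences around the RefSeq starts are shown because they carry short runs of bases common to all 6 genes. The RefSeq starts of Stfa1, Cstdc5 and Stfa2 lie inside the GENCODE gene spans above, and so do the stretches of these 3 genes. The 30-base stretches below run 5′ to 3′ on the gene's own strand and end with the longest such run, ACCTTTAAAACCC, in capitals.
Stfa2l1 (chr16:36156758-36156787, plus strand): aggaggagtttacagaaACCTTTAAAACCC
Cstdc4 (chr16:36184163-36184192, plus strand): aggaggagtttacagatACCTTTAAAACCC
Stfa1 (chr16:36277098-36277127, plus strand): aggaggagctttcggatACCTTTAAAACCC
Cstdc5 (chr16:36367570-36367599, minus strand): aggaggagtttacagatACCTTTAAAACCC
Stfa2 (chr16:36408383-36408412, minus strand): aggaggagcttacagaaACCTTTAAAACCC
Stfa3 (chr16:36455414-36455443, minus strand): ggaggagcttacagataACCTTTAAAACCC

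ACCTTTAAAACCC began 32 to 36 bases before the RefSeq start in 5 genes and 12 bases before it in Cstdc5. It was found by searching the 6 promoters, taken from 250 bases before the RefSeq start to 50 after it, for runs of at least 10 bases held by all. The search also gave AGAGGAGGAG and CACACTCATT. Over the 32851 RefSeq promoters of the same length, searched on both strands, ACCTTTAAAACCC was in 9 (0.0274%), and all 9 lay in or within 100 kb of this cluster. AGAGGAGGAG was in 1.03% and CACACTCATT in 0.113%, and only the 6 promoters they were drawn from held all 3 runs. For comparison, the PU.1-type motif GAGGAAGT was in 3.2% of all promoters and in 0 of the 6, and the C/EBP-type motif TTGCNNAA was in 10.8% of all and in 2 of the 6, Stfa1 and Cstdc5. The runs do not overlap each other in these promoters, and a match describes the sequence only.

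The 110 bases before the start are given for Stfa2l1 and Cstdc4, since these genes gave most of the UMIs, with the 3 shared runs in capitals (RefSeq, GRCm38.p6, both plus strand).
Stfa2l1 (chr16:36156701-36156810): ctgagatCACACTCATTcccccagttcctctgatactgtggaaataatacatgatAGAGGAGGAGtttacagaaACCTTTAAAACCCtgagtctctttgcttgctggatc
Cstdc4 (chr16:36184102-36184211): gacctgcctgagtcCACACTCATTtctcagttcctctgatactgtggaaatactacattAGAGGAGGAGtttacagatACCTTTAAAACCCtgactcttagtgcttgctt

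The copies are close enough that reads can be hard to place. Stfa1 and Cstdc5 were identical at 285 of 291 aligned coding bases (97.9%) and at 96.4% of aligned promoter bases. Stfa2l1 and Stfa2 matched at 298 of 309 coding bases (96.4%), and the other pairs at 77.7% to 84.5%. Among all 50-base stretches of the transcripts, 25.4% of those of Stfa1, 33.5% of Cstdc5, 24.6% of Stfa2l1, 15.9% of Stfa2 and 35.6% of Cstdc4 also occurred in another annotated gene. The partner of Cstdc4 at that length was Csta2, which is no member. Stfa1 and Cstdc5 shared such stretches with BC117090 too, and Stfa2l1 and Stfa2 with Gm49652, and neither of these is a member. Among 90-base stretches the shares were 4.24% for Stfa1, 16.6% for Cstdc5, 2.42% for Stfa2l1, 2.09% for Stfa2 and 15.4% for Cstdc4. For Cstdc5 only 7.36% occurred in another member, and BC117090 was its outside partner. Within the last 300 bases of these transcripts, the share of 50-base stretches ran from 24.3% for Stfa2l1 to 66.1% for Cstdc5. An antisense gene, Gm15845, overlaps the start of Cstdc5, and the use of strand in counting is not stated. Stfa3 shared no stretch of 30 bases or more with any annotated transcript. Counts of single genes other than Stfa3 are therefore uncertain, both within these pairs and against genes outside the 6. The sum over the 6 does not depend on how counted reads are divided between members, but it does depend on reads shared with genes outside them. It would also miss reads shared between members if these were left uncounted, and their handling is not given.

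Stfa2l1 and Cstdc4 supplied most of the stefin A UMIs of neutrophils in every library. Stfa2l1 stood at 775 CPM in naive neutrophils (UMIs per 1000000 UMIs of those cells, 95% exact Poisson interval 738 to 813), at 633 at 2 hours (605 to 662) and at 1478 at 3 days (1456 to 1501). In CPM it was therefore lowest at 2 hours and highest at 3 days, with intervals that cover counting error only. The log2 ratio of 2 hours to naive was small, at -0.29, and -0.07 relative to the median of all genes. Cstdc4 stood at 704 CPM in naive neutrophils (669 to 740), 1026 at 2 hours (991 to 1063) and 1530 at 3 days (1507 to 1552). Cstdc4 thus passed Stfa2l1 at 2 hours, when it gave 51.2% of the stefin A UMIs and Stfa2l1 31.6%, whereas at 3 days the shares were 42.6% and 41.2% and in the naive library 44.4% and 48.9%. Levels of different genes are per UMI and are not corrected for length or for capture.

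Stfa1 and Cstdc5, the near-identical pair, were scarce in naive neutrophils and higher in both transplant libraries. Stfa1 rose from 45.4 CPM (36.8 to 55.4) to 234 at 2 hours (218 to 252) and 263 at 3 days (254 to 272), a log2 ratio to naive of 2.37 and 2.53. Cstdc5 stood at 30.9 (23.9 to 39.3), 91.7 (81.4 to 103) and 228 CPM (219 to 237). At 2 hours Stfa1 was 0.17 below its 3-day level on the log2 scale and Cstdc5 was 1.31 below it. The direction for Stfa1 turned with a calprotectin limit of 5% (0.29 above) and relative to the median of all genes (0.18 above), where Cstdc5 stayed below, at -0.64 and -0.96. Stfa1 and Cstdc5 are the members most alike in coding sequence, so how their reads divide between them is uncertain. Both also share stretches with BC117090, which is no member.

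Stfa2 and Stfa3 were the least abundant. Stfa2 gave 13 UMIs in naive neutrophils, 47 at 2 hours and 628 at 3 days, which is 6.08, 15.2 and 54.4 CPM. Stfa3 gave 53, 15 and 405 UMIs, which is 24.8, 4.84 and 35.1 CPM, lowest at 2 hours in these sums. A single naive neutrophil held 44 of the 53 Stfa3 UMIs, and without it the naive level was 4.23 CPM (1.94 to 8.03) from 9 UMIs, about that at 2 hours, and the log2 ratio of 3 days to naive was 3.05 in place of 0.5. All these intervals cover counting error only, and since UMIs of these genes clump in few cells they are too narrow.

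**Figure D1:**
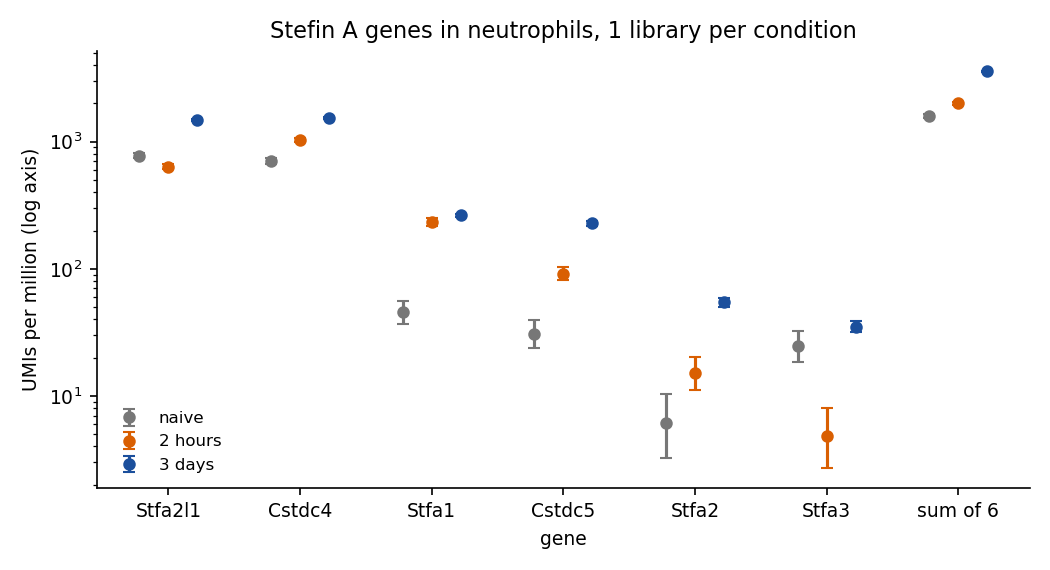
CPM of each stefin A gene and of their sum in the neutrophils of the naive, 2-hour and 3-day libraries, on a log axis; points are single libraries and bars 95% exact Poisson intervals. Stfa2l1 and Cstdc4 lie above the other genes in all 3 libraries, the sum rises from 1586 to 2005 to 3588, and Stfa3 is lowest at 2 hours, its naive point resting on 1 cell with 44 of 53 UMIs.

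The sum of the 6 genes was 1586 CPM in naive neutrophils (1533 to 1641), 2005 at 2 hours (1956 to 2056) and 3588 at 3 days (3554 to 3623). On the log2 scale, 2 hours exceeded naive by 0.34 and 3 days exceeded naive by 1.18, and 2 hours against 3 days gave -0.84. The median over all genes tested was itself shifted, by -0.23, 0.22 and -0.35, and relative to it the ratios of the sum were 0.56, 0.96 and -0.49. The choice of cells and of scaling moved the log2 ratio of 2 hours to naive between 0.16 and 0.56, whereas the 3-day sum was the highest under each alternative tried.

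Counts of members past 2-fold are given beside the same counts over all genes. From naive to 2 hours, 3 of the 6 were over 2-fold higher (Stfa1, Stfa2 and Cstdc5), against 8.63% of all genes with at least 50 UMIs, and Stfa3 was over 2-fold lower, against 22.1%, a count of 0 without the single naive cell, since Stfa3 then has too few UMIs to be tested. As a mean over cells, 2 were over 2-fold higher at 2 hours, since the log2 ratio of Stfa2 was then 0.68. The naive UMIs of Stfa2 came from 3 neutrophils and those of Cstdc5 from 12. From naive to 3 days, 4 were over 2-fold higher (Stfa1, Stfa2, Cstdc4 and Cstdc5), against 12.2%, and 0 were lower, against 11.4%. Without the single naive cell rich in Stfa3, that gene joined the higher genes, which made 5. At 2 hours against 3 days, 0 were higher, against 5.04%, and 4 were lower (Stfa2, Stfa2l1, Stfa3 and Cstdc5), against 17.2%. The median member had a log2 ratio of 0.87, 1.81 and -1.26 in these comparisons. The comparisons share libraries, and with 1 library each these counts are a description.

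Shares of positive cells were compared at a fixed depth. With every neutrophil thinned to 500 UMIs, 29.8% of naive (95% exact binomial interval 25 to 35), 32.8% of 2-hour (31.2 to 34.5) and 53.2% of 3-day neutrophils (51.1 to 55.2) kept a UMI of any of the 6. No naive neutrophil and no 3-day neutrophil was too shallow, and 262 were left out at 2 hours. The order of the first 2 was not stable, since with a calprotectin limit of 1% the thinned shares were 31.1% and 30.7%. Without thinning, the shares were 51%, 38.8% and 75.8%. B-like and T-like cells, which should lack these genes, gave 0%, 0.877% and 0.701% at the same depth, the first being 0 of 1120 cells, which allows up to 0.268% by a limit of 3 cells and 0.329% by the exact interval. Their own medians before thinning ranged from 759 to 9808 UMIs.

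By gene, Stfa2l1 was found in 20.9% of naive, 18.5% of 2-hour and 36.8% of 3-day neutrophils at that depth. Cstdc4 was found in 15.3%, 19.6% and 30.6%. Stfa1 reached 1.47%, 4.08% and 5.37%, and Cstdc5 0.885%, 1.57% and 4.93%. Stfa2 and Stfa3 stayed at 1.7% or below in every library. The 3-day share was highest for each gene, although the naive intervals of Stfa2 and Stfa3, from 1 positive cell each, and the 2-hour interval of Stfa1 (3.42 to 4.82) overlapped those at 3 days.

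**Figure D2:**
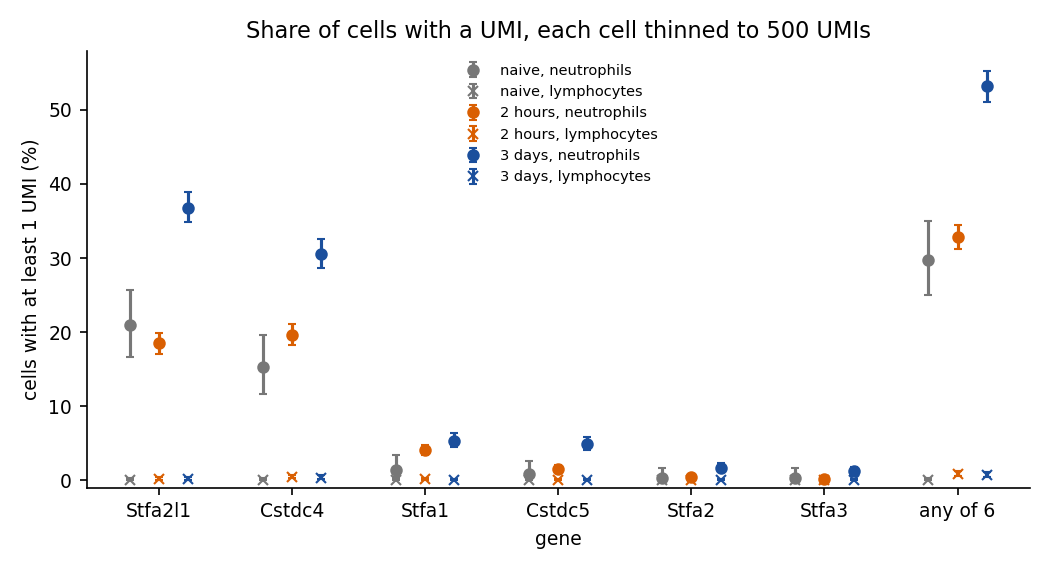
Percentage of neutrophils (circles) and of B-like and T-like cells (crosses) with at least 1 UMI of each gene after thinning every cell to 500 UMIs, per library, with 95% exact binomial intervals. Any of the 6 genes was found in 29.8%, 32.8% and 53.2% of neutrophils, and in under 1% of lymphocytes.

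Within a library the genes were unevenly spread over the neutrophils. At 3 days 541 of 2233 neutrophils had no stefin A UMI, with a median of 4213 UMIs each, while the other 1692 held 24.5 on average and up to 348. The 1080 cells with at least 10 such UMIs held 93.6% of them. In the naive library 166 of 339 neutrophils had none, and the 34 cells with the most held 63.7% of the UMIs. The 345 highest cells at 2 hours, again 10% of the neutrophils, held 61% of the UMIs, and the 223 highest at 3 days held 44.6%.

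Stfa1 and Cstdc5 at 3 days were found in few cells but at many UMIs in each. Stfa1 was found in 263 of 2233 neutrophils, and these averaged 11.5 UMIs, close to the 12.1 of the 1416 cells with Stfa2l1 and the 15.5 of the 1140 cells with Cstdc4. Cstdc5 was found in 223 cells at 11.8 UMIs each. The medians were lower, at 7 for Stfa1 and 5 for Cstdc5 against 9 for both Stfa2l1 and Cstdc4. Naive cells with Stfa1 averaged 4.85 UMIs and cells with Cstdc5 5.5, below the 12.1 of Stfa2l1 and the 15 of Cstdc4. At 2 hours the averages of 4.27 and 4.06 were above the 2.33 and 3.76 of Stfa2l1 and Cstdc4. Stfa2 and Stfa3 at 3 days had both few cells, 157 and 136, and few UMIs in each, 4 and 2.98.

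The variance-to-mean ratio describes the same clumping. After thinning to 500 UMIs it was 3.85 for Stfa1, 3.2 for Cstdc5, 3.26 for Cstdc4 and 2.48 for Stfa2l1 at 3 days, above 97.3% to 99.4% of the genes whose mean lay within 2-fold of theirs. Csf3r, the receptor for granulocyte colony-stimulating factor, had a ratio of 1.18, above 28.6% of such genes. At 2 hours Cstdc5 reached 6.03 and Stfa1 5.45. Genes of another kind were clumped over the same set of neutrophils, such as the granule gene Ngp, with a ratio of 6.2 at 3 days. Whether the same single cells held both was not counted.

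Cells that held much stefin A RNA also differed in which gene supplied it. Among 3-day neutrophils with at least 10 UMIs of Stfa2l1 and Cstdc4 together, 154 of 1002 held only Stfa2l1, 71 held only Cstdc4 and 777 held both. The share of Stfa2l1 in these cells had a median of 53.3% and an SD of 31.6 percentage points, where a common share would leave an SD of 10.8 from counting alone. Shares under 10% were found in 11.1% of the cells, shares from 50% to 60% in 13.1%, and shares of 90% or more in 21.2%. In the naive library 22 of 85 such cells held only Stfa2l1 and 9 only Cstdc4. At 2 hours the counts were 1 and 14 of 110, so there Cstdc4 more often stood alone, among cells that are shallow.

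**Figure D3:**
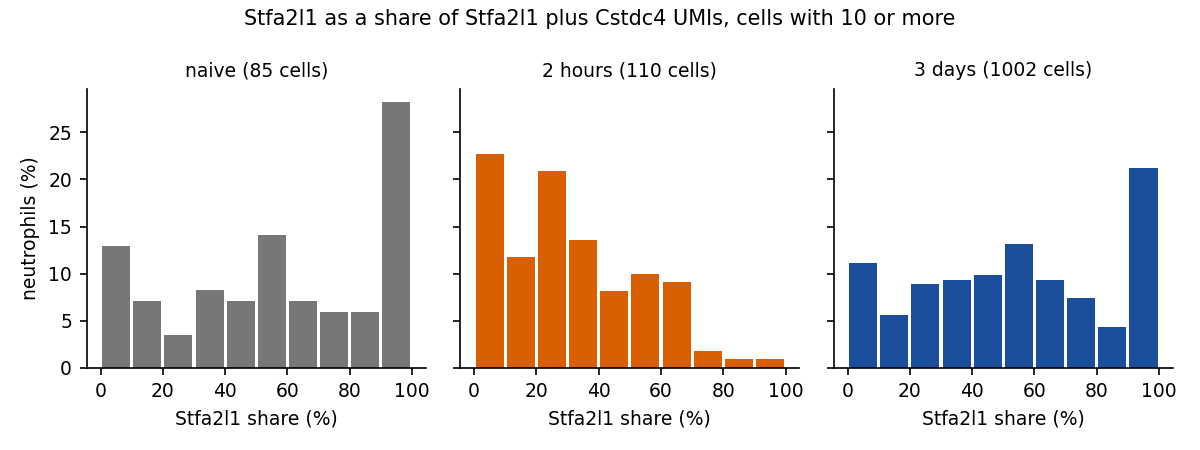
Stfa2l1 UMIs as a percentage of Stfa2l1 plus Cstdc4 UMIs per neutrophil, for cells with at least 10 of both together, in bins of 10 points; bars give the percentage of such cells in the naive (85 cells), 2-hour (110 cells) and 3-day (1002 cells) libraries. Cells fall over the whole range, with 21.2% of 3-day cells at 90% or more and 11.1% under 10%.

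Over all 6 genes, 1 gene held at least 90% of the stefin A UMIs in 260 of the 1080 3-day neutrophils with at least 10 (24.1%, and 24% without called doublets). Stfa2l1 was that gene in 163 cells, Cstdc4 in 83, Stfa1 in 8 and Cstdc5 in 6. Stfa1 supplied the most UMIs in 61 of the 1080 cells and Cstdc5 in 43. In the naive library 35 of 88 such cells were dominated by 1 gene, 23 of them by Stfa2l1, and at 2 hours 28 of 157, 19 of them by Cstdc4.

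Finding any member went with finding the others. In 15 of 15 pairs at 3 days, 10 of 10 at 2 hours and 3 of 3 in the naive library, for genes present in at least 20 cells, cells with the first gene held the second more often than neutrophils did in general. Of the 263 3-day cells with Stfa1, 23.6% held Cstdc5, against 9.99% of all. Of the 136 with Stfa3, which shares no long stretch with any copy, 35.3% held Cstdc5 and 79.4% Stfa2l1, against 9.99% and 63.4%. Cells with more members were deeper, with a median of 4550 UMIs for 1 member found and 5342 for 4, and the part of depth in these shares was not tested. Pairs of other genes were not counted, so these counts have no background and are not a trait particular to the members.

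Among lymphocytes the genes were scarce. The neutrophil sum exceeded that of B-like and T-like cells by 10.5 on the log2 scale in the naive library, where lymphocytes gave 1.09 CPM, by 5.66 at 2 hours, where they gave 39.6, and by 8.3 at 3 days, where they gave 11.4. At 2 hours 6 of 4192 lymphocytes held 47.5% of their stefin A UMIs, and without cells called doublets by Scrublet the difference there was 6.78. Per 100 UMIs of S100a8 and S100a9, naive neutrophils held 1.42 stefin A UMIs, B-like cells 1.86 and NK-like cells 1.92. At 2 hours the values were 4.53, 7.31 and 6.6, and at 3 days 2.69, 2.36 and 2.74. The low levels in lymphocytes thus came in ratios to the calprotectin genes within 2-fold of those in neutrophils, as measured in each library.

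Neutrophil-like cells under the 2% limit held more. They had 481 (naive), 1105 (2 hours) and 1554 CPM (3 days) of the 6 genes, less than the neutrophils of the rule, but 4.48, 9.03 and 15.5 UMIs per 100 of S100a8 and S100a9. The ratio is raised by the rule itself, which keeps cells rich in calprotectin RNA out of this class. In the neutrophil-like clusters just below the limit, from 1.5% to 2%, the level was 216 CPM for 11 naive cells, 1149 for 347 cells at 2 hours and 1621 for 49 at 3 days, and just above it, from 2% to 2.5%, it was 1003 for 8 cells, 1451 for 366 and 2320 for 44. The naive order was uneven, with 584 CPM for 16 cells from 1% to 1.5%. Over cells of any cluster, those with at least 10% reached 2351, 2675 and 4585 CPM. At 2 hours 86 of 3450 neutrophils were above 10%, against 1256 of 2233 at 3 days, so the libraries differ in calprotectin content as well as in stefin A. In the ratio to calprotectin the 2-hour neutrophils were the highest of the 3 libraries, whereas in CPM the 3-day neutrophils were.

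Monocytes, the nearest relatives of neutrophils in the sort, differed by type. Nonclassical monocyte-like cells held 274 CPM at 2 hours (231 to 322), from 145 UMIs in 42 of 349 cells, of which Cstdc4 gave 84 and Stfa2l1 47. Their ratio to calprotectin was 5.3 stefin A UMIs per 100, where neutrophils of that library had 4.53. At 3 days they held 45.6 CPM (38.9 to 53.1), with 98 of the 163 UMIs in 3 of 461 cells, and in the naive library 1 UMI in 71 cells. Classical monocyte-like cells held 22.5 CPM at 2 hours (12 to 38.5) and 12.4 at 3 days (10.5 to 14.4). At 2 hours 1 cell held 9 of the 13 UMIs, and without called doublets the levels were 3.67 CPM from 2 UMIs and 7.68, the opposite order. At 2 hours 57 further cells of the nonclassical cluster passed the neutrophil limit and held 1398 CPM, 1.75% of them called doublets, and the part of mixed droplets in the level of that cluster was not tested.

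Basophil- or mast-like cells held 121 CPM at 3 days and 180 at 2 hours, but from very few cells. At 3 days 1 cell held 72 of the 78 UMIs, and at 2 hours 3 of 68 cells held all 16, 2 of them called doublets. Their ratio to calprotectin, 19.5 per 100 at 2 hours and 15 at 3 days, rests on the same cells. In the naive library 0 UMIs were found in 20 cells. The unnamed cluster at 2 hours held 602 CPM in 139 cells below the neutrophil limit, of whose 49 cells with a stefin A UMI 44 were called doublets, and 349 CPM without doublets. Macrophage-like cells held 12.7 CPM at 3 days and 2.04 in the naive library, and alveolar macrophage-like cells 2.52 in the naive library, the only library with that class.

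**Figure D4:**
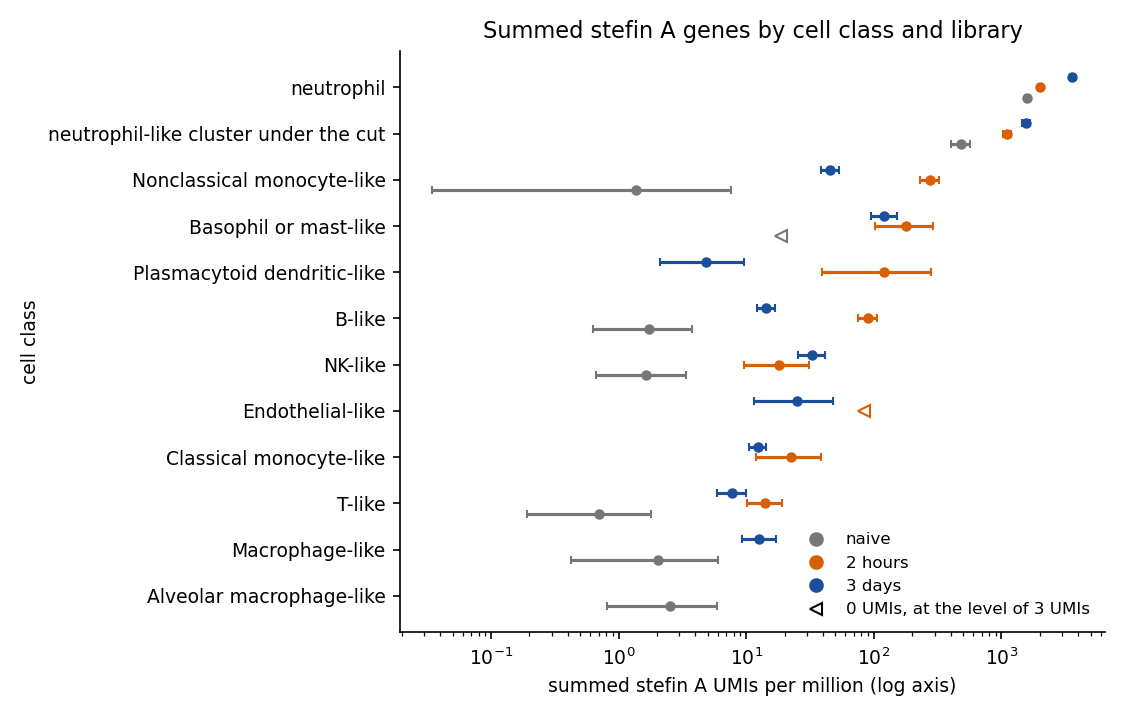
Summed stefin A CPM in each named cell class and library, on a log axis, with 95% exact Poisson intervals. Open triangles mark classes with 0 UMIs, placed at the level 3 UMIs would give. Unnamed clusters are not drawn. Neutrophils lead in every library, the neutrophil-like cells under the limit follow, and at 2 hours nonclassical monocyte-like cells stand at 274.

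Within neutrophils the level was set beside secondary granule genes, which are transcribed while neutrophils mature in the marrow and were not used by the rule. Neutrophils were ordered by their share of UMIs on Ltf, Camp, Ngp, Lcn2 and Chil3 and split into quintiles. Lcn2, which encodes the iron-siderophore binder lipocalin 2, gave 25.1% of the naive UMIs of this list, 73.6% of the 2-hour and 86.8% of the 3-day UMIs, so the order in the transplant libraries is mostly that of Lcn2. At 3 days the sum rose through the quintiles, at 2744, 3002, 3342, 4136 and 4375 CPM. In the naive library it stood at 969, 901, 1310, 2589 and 2039 CPM, so the upper 2 quintiles were above the lower 3. At 2 hours it stood at 1964, 1834, 1885, 2022 and 2322, a flatter course, and there the lowest 2 quintiles both had no granule UMI and were divided at random.

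The difference between the highest and lowest quintile on the log2 scale was 1.07 for naive cells, 0.24 at 2 hours and 0.67 at 3 days. With the cells ordered after thinning to 500 UMIs, which leaves fewer granule UMIs to order by, it was 0.91, 0.02 and 0.35. Ordered by the list without Lcn2, an alternative chosen after seeing the data, it was 0.39, 0.15 and 0.24. The median depth of the 3-day quintiles ran from 4002 UMIs in the lowest to 5555.5 in the highest, and its part in the order was not tested.

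**Figure D5:**
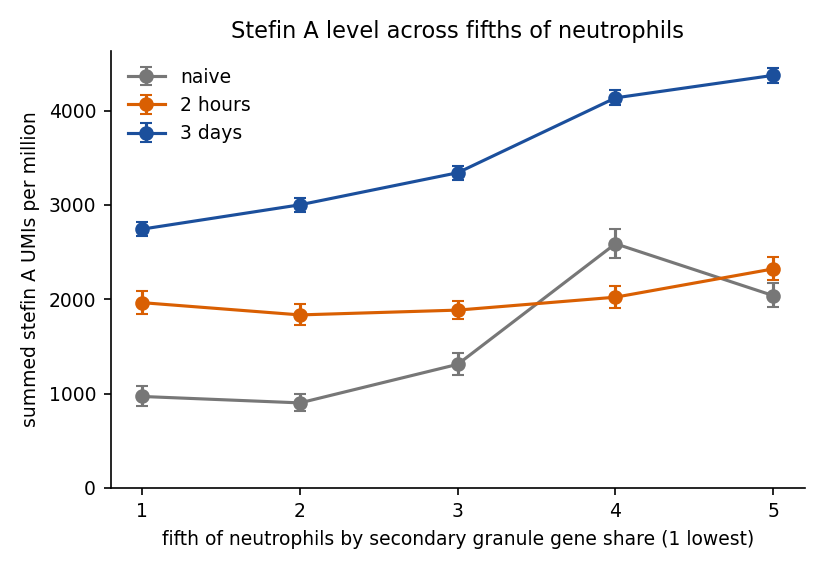
Summed stefin A CPM in quintiles of the neutrophils of each library, ordered from the lowest (1) to the highest (5) share of secondary granule genes, with 95% exact Poisson intervals. The 3-day line rises from 2744 to 4375, the naive line is higher in the upper 2 quintiles, and the 2-hour line is nearly level.

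Clusters, made without the 6 genes and without S100a8 and S100a9, gave a similar picture at 3 days. The cluster led by Retnlg, S100a8 and Lcn2, with 712 neutrophils, held 4740 CPM of the sum, 2212 from Cstdc4 and 335 from Cstdc5. A cluster led by the interferon-induced genes Rsad2 and Oasl1 held 3943, that led by Il1f9 and Acod1 3517, and that led by Cxcr2 and Steap4 3195. Stfa2l1 was level across these 4 clusters, between 1565 and 1678 CPM, while Cstdc4 ran from 1182 to 2212. An unnamed cluster led by Tnf, Ccl3 and Siglecf contributed 45 neutrophils and held 427 CPM, with 0 UMIs of Stfa2, Stfa3 and Cstdc5.

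At 2 hours the clusters differed in which gene was high. The cluster led by Scgb1a1, Ngp, Retnlg and Camp held 339 CPM of Stfa1 and 791 of Cstdc4. That led by Spp1 and Cxcl3 held 203 of Stfa1 and 1574 of Cstdc4. The third, led by Ccrl2 and Il1a, held 168 and 1079. In the same order, their stefin A sums were 1890, 2558 and 2004 CPM. Their secondary granule genes stood at 2556, 1431 and 2007 CPM. The sum was thus lowest in the cluster where the granule genes were highest, unlike at 3 days. Stfa2l1 varied less than Cstdc4 there, from 587 to 710 CPM. In the naive library the cluster led by Rps6ka2, Il1r2 and Retnlg held 1755 CPM of the sum and that led by Ccrl2, Marcksl1 and Acod1 1238. Stfa2l1 was not level between them, at 851 and 649 CPM.

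Over the 30 library and cell class sums with at least 20 cells, the genes whose levels were most like the stefin A sum were Retnlg (Pearson r = 0.963), which encodes a resistin-like protein, S100a9 (0.961), the chemokine receptor gene Cxcr2 (0.957), H2-Q10 (0.953) and S100a8 (0.951). Mirt2, Slc40a1, Asprv1, Gm39321 and Lcn2 followed, down to 0.932. S100a8 and S100a9 defined the neutrophil class. Together with Retnlg, Cxcr2 and Lcn2 they were also on the list that named the neutrophil-like clusters. The high points were thus partly chosen by these genes, and their rank is no independent finding. The points also share libraries and depth within a library, so the correlations are a description. Without the neutrophil classes r was 0.782 to 0.896 for these 10 genes over 24 points. The genes were picked over the 30 points that include these 24, and some of the 24 stefin A levels rest on very few cells. This range is therefore no separate check.

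The proteases that stefins inhibit were measured in the same neutrophils. Ctsb, cathepsin B, stood at 183 CPM in naive neutrophils, 291 at 2 hours and 377 at 3 days, the order of the stefin A sum. Ctsl stood at 89.9, 48.8 and 164 CPM, Ctss at 82.8, 56.5 and 150, and Ctsh at 53.8, 38.1 and 76.6, each lowest at 2 hours as was Stfa2l1. Ctsc, which activates the serine proteases of granules, stood at 29.5, 9.04 and 68. Of the 11 listed cysteine protease genes, 9 were tested from naive to 3 days and 3 were over 2-fold higher (Ctsb, Ctsc and Ctso) with 0 lower, against 12.2% and 11.4% of all genes, and their median log2 ratio was 0.85, where that of all genes was 0.22. From naive to 2 hours 0 of 7 were higher, against 8.63% of all genes, and 2 were lower (Ctsc and Lgmn), near the 22.1% of all genes. At 2 hours against 3 days 7 of 9 were over 2-fold lower, against 17.2% of all genes, with a median of -1.51 where that of all genes was -0.35. Macrophages are rich in several of these genes, and macrophage markers moved too, with a median of 0 of 8 markers per neutrophil in the naive and 2-hour libraries and 1 at 3 days. The summed macrophage markers were 86.6, 73.6 and 345 CPM, with C1qa, C1qb and C1qc at 0 in the first 2, and their part in the protease levels was not tested.

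Other cystatins were measured beside them. Cstb, stefin B, which is made by most cells, stood at 280, 258 and 387 CPM in neutrophils, and the secreted Cst3 at 723, 346 and 751. Csta2 stood at 4.68, 17.8 and 10.7 CPM and Csta3 at 21.5, 13.9 and 18. Of 8 listed cystatins in the count files, 4 had enough UMIs to be tested, 1 was over 2-fold higher (Csta2) and 1 lower (Cst3) from naive to 2 hours, and 1 was higher (Csta2) and 0 lower from naive to 3 days. Over all genes these shares were 8.63% and 22.1% at 2 hours and 12.2% and 11.4% at 3 days, so with 4 genes the counts are near the background. Csta1 and Cst6 gave under 1 CPM in every library, as did Cstdc6. Csta2 shares reads with Cstdc4, so its value is uncertain.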

How the data were processed

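The deposited files hold raw UMI counts per gene and droplet, with no normalization, which the authors made with Cell Ranger. The labels name version 6, the mm10 genome and Seurat 4, while per the file headers naive counts came from 7.1.0 and the others from 6.0.0. Every ratio to naive, and every count of genes past 2-fold from naive, therefore also compares these versions. The labels list both a 5′ and a 3′ kit for each library and the methods a 3′ kit, so the chemistry is not settled. The handling of reads matching several genes is not given in the sources.

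The study's filters were applied to cells: more than 200 but fewer than 6000 genes, less than 10% of UMIs mitochondrial, and fewer than 25000 UMIs in all. UMIs were summed over the neutrophils of a library and divided by all their UMIs. Ratios between libraries carry exact conditional intervals. Counts of genes over 2-fold used CPM plus 1 and genes with at least 50 UMIs over both libraries. Doublets were called with Scrublet in scanpy 1.11.5 and kept. Other lineages are Leiden clusters (resolution 1, 30 components, 2000 genes) named by marker lists, and clusters with no clear list stayed unnamed. Promoter sequences come from RefSeq (GRCm38.p6), where all 6 genes matched by symbol, and coding sequences from GENCODE vM21. Identities of both are from global alignment in Biopython 1.88. Named genes were all members, fixed lists of cystatins, proteases and neutrophil genes, and the 10 most alike in level. The members and lists were chosen with earlier results of these data known. Ratios and counts were tested on simulated sums with counting error only. Those sums leave out the clumping of UMIs in few cells, so they do not test that setting.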

Additional observations from a re-analysis of the deposited data

How the results depend on the processing

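With 1 library per condition the differences have no replicate check. No paired analysis was possible because each condition is 1 library and no result comes from a test. The sum kept its order of naive, 2 hours and 3 days under each alternative. For 2 hours to naive (log2 0.34) it was 0.25 with calprotectin at 1% or more of UMIs, 0.52 at 5%, 0.16 without cells holding a B, T, NK or macrophage marker (171, 3131 and 692 cells left), 0.56 less the median of all genes, 0.43 after thinning to 500 UMIs and 0.4 without the 13 naive neutrophils of the cluster led by Ngp, Camp and Ltf, an alternative chosen after seeing the data. For 3 days to naive (1.18) it was 1.26 without doublets, 1 without cells holding another lineage's marker, 0.96 less the median, 1.25 after thinning and 1.24 without those 13 cells. For 2 hours to 3 days (-0.84) it was -0.91 at 1%, -0.62 at 5%, -0.9 without doublets, -0.78 as a mean over cells and -0.49 less the median.

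Single stefin A genes reversed in 4 cases. Stfa1, 2 hours to 3 days (-0.17), was 0.29 at 5% and 0.18 less the median, and Stfa3, 2 hours to naive, was 0.49 without cells holding another lineage's marker and 0.19 without the naive cell with 44 Stfa3 UMIs, an alternative chosen after seeing the data. Members over 2-fold lower at 2 hours against 3 days were 2 in place of 4 at 5% and less the median, and 0 in place of 1 for 2 hours to naive without marker-holding cells, after thinning and without that naive cell.

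Neutrophils to lymphocytes, the log2 ratio at 2 hours (5.66) was 6.81 at 1%, 6.78 without doublets, 6.23 as a mean over cells, 5.14 outside ribosomal and mitochondrial genes and 6.18 after thinning. At 3 days (8.3) it was 7.92 at 5%, 8.52, 7.8 and 8.02 without doublets, outside those genes and after thinning. The share of neutrophils with a stefin A UMI was 23.6%, 27.8% and 45.6% at 300 UMIs and 51%, 38.8% and 75.8% with no thinning, and, thinned to 500 UMIs, 31.1%, 30.7% and 51.1% at 1% and 31.3%, 37.6% and 57.3% at 5%. The naive share is thus the higher of naive and 2 hours with no thinning and at 1%, and the lower at 2% and 5% and at 300 UMIs. The ratio of the highest to the lowest granule quintile was 0.87 as a mean over cells and 1.29 without doublets for naive cells, 0.02 (2 hours) and 0.35 (3 days) when ordered after thinning, and 0.39 (naive) and 0.24 (3 days) when ordered without Lcn2, also chosen after seeing the data. Without the 13 naive cells the secondary granule genes reversed: at 2 hours against naive the log2 ratios of Ltf, Camp and Ngp were 1.94, 4.99 and 5.59, and at 3 days those of Ltf, Camp, Ngp, Lcn2 and Chil3 were 1.04, 4.51, 2.67, 0.91 and 0.65.

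Genes over 2-fold, 2 hours to naive, numbered 484 higher and 1240 lower, 996 and 2085 with at least 10 UMIs, 1325 and 2728 for every gene with a UMI, 303 higher at 5% and 664 lower after thinning. For 3 days to naive they numbered 986 and 921, 1489 and 1417 with at least 10 UMIs, 1489 and 1817 for every gene, 594 higher less the median, and 365 and 418 after thinning. For 2 hours to 3 days they numbered 408 and 1392, 666 higher with at least 10 UMIs, 761 higher for every gene, 753 and 702 less the median, and 262 and 664 after thinning. The fewer genes after thinning follow from fewer UMIs, and the causes of the other changes were not tested.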

Other observations

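Other neutrophil genes moved in their own ways beside the stefin A genes. Of 5 secondary granule genes, 4 (Ltf, Camp, Ngp and Chil3) were over 2-fold lower than in naive neutrophils both at 2 hours and at 3 days, against 22.1% and 11.4% of all genes. This rests on 13 of the 339 naive neutrophils, a cluster led by Ngp, Camp and Ltf that held 87.7% of the naive UMIs of the 5 genes. Camp, a cathelicidin antimicrobial peptide, stood at 1249 CPM in naive neutrophils and at 1.01 without that cluster, against 32.3 at 2 hours and 23 at 3 days. Without it, 4 of the 5 genes were over 2-fold higher and 0 lower at 2 hours, and 2 higher and 0 lower at 3 days. The 13 cells held 11.7% of the naive stefin A UMIs, and without them the naive sum was 1517 CPM. Of 11 activation genes, 4 were over 2-fold higher at 2 hours than in naive neutrophils and 0 lower, against 8.63% and 22.1% of all genes, with the chemokine gene Cxcl2 at 2061, 18772 and 3668 CPM. Of 6 interferon-induced genes, 0 were over 2-fold higher and 3 lower at 2 hours than in naive neutrophils. At 3 days 1 was higher and 0 lower. Over all genes these shares were 8.63% and 22.1% at 2 hours and 12.2% and 11.4% at 3 days. The higher gene was Ifitm1, at 741, 511 and 3547 CPM, while the median log2 ratio of the list to naive was -0.79 and -0.34.

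In the 3-day neutrophils ordered by activation genes, the stefin A sum was between 3438 and 3943 CPM in the lower 4 quintiles and 2851 in the highest. At 2 hours it stayed between 1959 and 2087 across those quintiles. Ordered by interferon genes, the naive sum was higher in the outer quintiles, 2053 and 2290 CPM, than in the middle ones, 1036 to 1404.

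Antibody features accompanied the 2 transplant libraries. Those for CD11b, CD62L, CD101 and CD184 gave 0 to 4 counts over all neutrophils of a library, so these surface proteins could not be set beside the stefin A genes. Over all antibody features the median was 111 counts per neutrophil at 2 hours and 104 at 3 days.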
